A study of Mus musculus with 8 samples.

Results

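The genes described here encode subunits of the G protein beta-gamma dimer, 4 beta genes (Gnb1, Gnb2, Gnb3 and Gnb4) and 6 gamma genes (Gng2, Gng3, Gng4, Gng7, Gng12 and Gng13). They were chosen by name, and all 10 were found among the 18939 genes of the table, each represented by the transcript with the highest total count. RNA was collected by Translating Ribosome Affinity Purification (TRAP), in which an antibody pulls down ribosomes tagged with EGFP-L10a, from neurons of the paraventricular nucleus of the thalamus (PVT) that carry the Mu opioid receptor (MOR). All mice, controls included, were of the genotype OPRM1cre X EGFP-L10a, in which Cre is inserted at the MOR gene Oprm1 and switches on the ribosomal tag. All were 8 to 12 weeks old. The morphine group (4 libraries) drank morphine in 0.2% saccharin for 11 days, at 0.3 mg/ml and then 0.5 mg/ml. The control group (4 libraries) had 0.2% saccharin alone, which the labels call control drinking water. Each library pooled gross dissections aimed at the PVT from 2 mice of 1 sex, so cells of neighbouring regions may be present, and 2 libraries of each group are labelled male and 2 female. No RNA from before the pull-down was analysed here, so enrichment over the tissue was not measured.

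When a receptor such as the MOR is activated, the G protein splits into an alpha subunit bound to GTP and a beta-gamma dimer. The free dimer opens GIRK potassium channels, slows presynaptic calcium channels and raises or lowers the activity of particular adenylyl cyclases, and it recruits the kinases that desensitize the receptor. Beta and gamma subunits are made as obligate pairs, and a lipid on the gamma subunit holds the dimer at the membrane.

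The control libraries held 37081348 to 43311793 counts and the morphine libraries 31151103 to 47582947. Values are CPM, the counts of a gene divided by its library's TMM-normalized size and multiplied by 1000000. Differences were tested in edgeR by quasi-likelihood, P was adjusted by Benjamini-Hochberg over all 18939 genes, and a gene is said to be called where its adjusted P is under 0.05. Control replicate 5 is labelled female but held 250 to 1206 counts of each of 4 Y-linked genes, against at most 2 in the 3 other female libraries, so each test of sex is given with and without it. Oprm1 itself lay at 16.8 to 32.3 CPM in the control libraries and 14.0 to 18.4 CPM in the morphine libraries (edgeR, log2 fold change -0.62 ± 0.19 SE, adjusted P = 0.207). The summed CPM of 9 midline thalamus markers was 2847 to 3906 in the control and 2007 to 3588 in the morphine libraries, and 9 of 9 had a log2 fold change below 0, with a median of -0.47 and none called by edgeR or DESeq2. Markers of other cells moved with the groups as well. For 13 markers of telencephalic pyramidal neurons the sum was 595 to 894 against 933 to 1247.5 CPM, and for 13 choroid plexus markers it was 43.4 to 162 against 218 to 682 CPM. Of these markers, 12 of 13 in each list had a log2 fold change above 0. In the telencephalic list edgeR called 2 and DESeq2 5, and in the choroid plexus list edgeR called 0 and DESeq2 8. In the choroid plexus list, 1 marker was at 0 in at least 1 library. Fits with the mean log2 level of either list as a covariate are given below for each member whose value they moved by over 1.5 times. Microglia markers summed to 0.956 to 5.22 CPM and endothelial and mural markers to 5.31 to 14.0 CPM over all libraries. In these bulk libraries, a change in the share of a cell type and a change in RNA per cell cannot be told apart.

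Across genes, levels were compared as CPM per kilobase of transcript. Gnb1, the main beta subunit of the brain, stood highest, at 466 ± 36.6 CPM per kilobase (SD, n = 8), and made up 67.7% of the length-scaled beta total. Gnb2, a beta subunit found in most tissues, held 19.7%. Gnb5, the atypical beta subunit that pairs with RGS proteins, is not a member and held 12.02%. Gnb4 held 0.552% and Gnb3, known from cone photoreceptors, 0.0469%, so that the beta message in these libraries came almost wholly from Gnb1, Gnb2 and Gnb5.

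Of the gamma genes, Gng3 and Gng2, both known from neurons, stood highest. Gng3 lay at 298 ± 32.3 CPM per kilobase (SD, n = 8) and held 42.6% of the length-scaled gamma total. Gng2 lay at 202 ± 17.4 CPM per kilobase and held 29.0%. The ranges of Gnb1, Gng3 and Gng2 over the 8 libraries did not overlap, in that order, but without division by length Gng2 (45.3% of the gamma total) stood above Gng3 (28.7%). Gng7, the gamma subunit of striatal Golf signalling, followed at 9.18% of the gamma total, and Gng4 at 5.80%, with Gng7 above Gng4 in 7 of 8 libraries. Gng13, known from taste cells and retinal bipolar cells, held 4.12%, and Gng12, which is found in many tissues, 3.79%. Those neighbours are not separated, since Gng13 was above Gng12 in 5 of 8 libraries and their ranges overlapped. The whole gamma total was 629 to 738 CPM per kilobase in the control and 681 to 742 CPM per kilobase in the morphine libraries, and the beta total was 666 to 751 against 590 to 726, so both overlapped between groups.

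**Figure D1:**
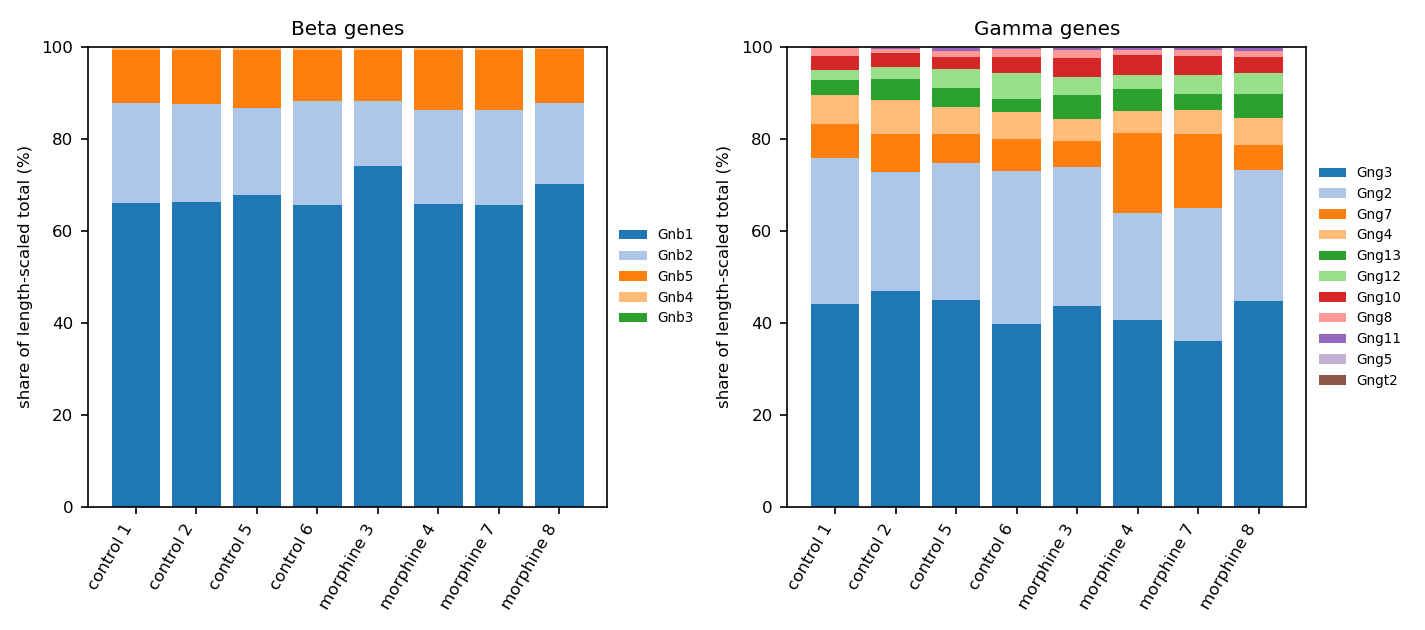
Stacked bars give each gene's share (%) of the beta total (left) and gamma total (right), in CPM per kilobase, for the 4 control and 4 morphine libraries. Gnb1 takes 65.6% to 74.1% of the beta total in every library, while the share of Gng7 is 17.4% in morphine 4 and 16.0% in morphine 7 and 5.37% to 8.36% in the rest.

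Whether chronic morphine drinking changed the dimer's genes was asked first. None of the 10 members was called, and 0 of 10 had an unadjusted P under 0.05, where edgeR called 37 of all 18939 genes (0.195%) and gave 12.1% of them an unadjusted P below the same limit. DESeq2, which called 502 of the 15260 genes it gave an adjusted P (3.29%), called 0 members. In 0 of 10 did the morphine libraries lie wholly above or below the control libraries, and 6.54% of all genes were separated in this way (3.34% upward and 3.21% downward). The log2 fold change was above 0 for 4 members and below 0 for 6, with a median of -0.02 against 0.01 over all genes. A test that misses the threshold does not show equal levels, so the 95% interval of the log2 fold change is given for each member.

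**Figure D2:**
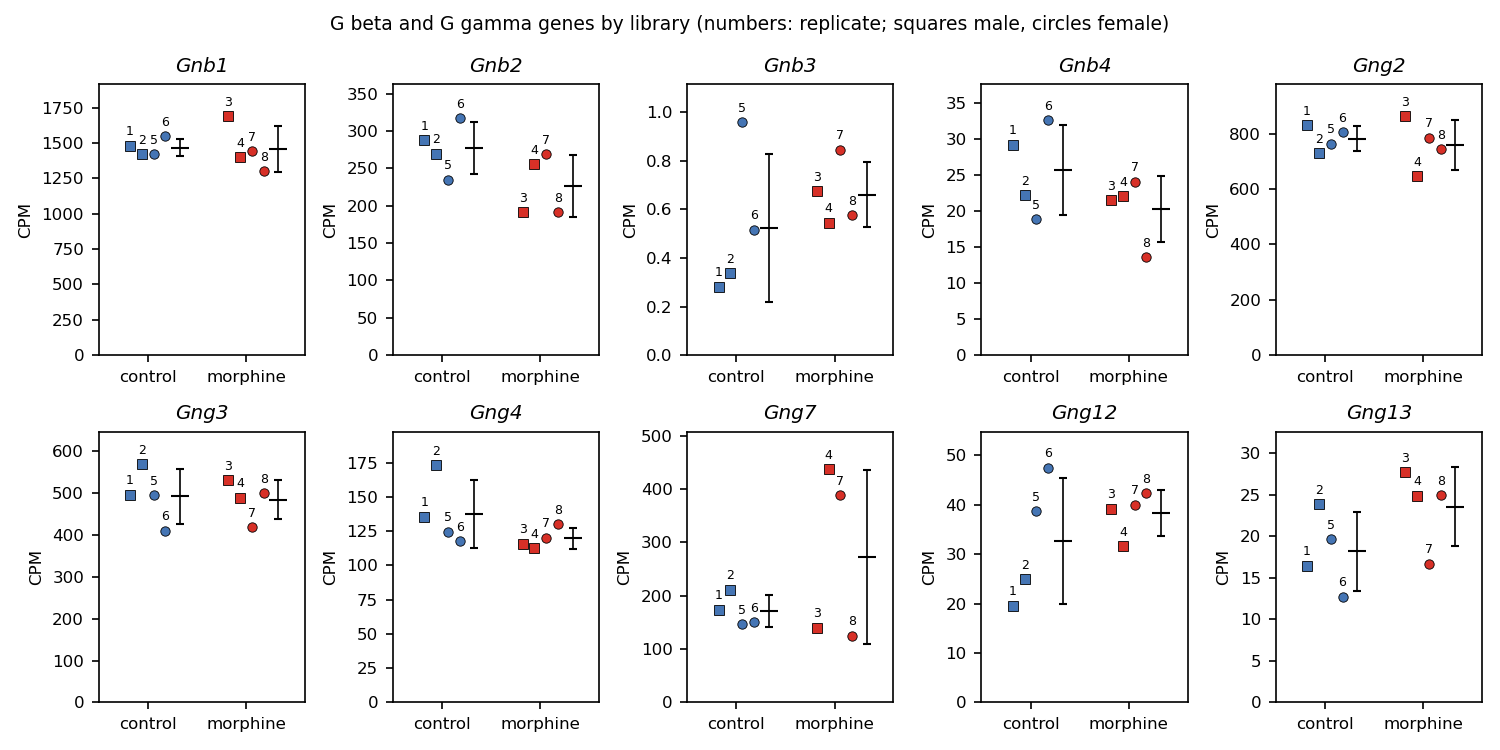
Each panel plots 1 gene's CPM (linear axis from 0) for control (blue) and morphine (red) libraries, with squares for male, circles for female, replicate numbers above the points, and bars for the mean and SD (n = 4). The groups overlap in all 10 panels, and Gng7 splits the morphine libraries, with 436 and 388 CPM in replicates 4 and 7 and 140 and 125 CPM in replicates 3 and 8.

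Gnb1 (GRCm38.p6, chr4:155491300-155559269) was counted at 1482, 1423, 1420.3 and 1549 CPM in control replicates 1, 2, 5 and 6, and at 1689.5, 1401, 1441.5 and 1303 CPM in morphine replicates 3, 4, 7 and 8. The highest and the lowest library were both morphine libraries, and the means were 1468 ± 60.7 and 1459 ± 164.5 CPM (SD, n = 4 each). Its log2 fold change was -0.01 ± 0.11 SE, with an interval of -0.25 to 0.23 (edgeR, adjusted P = 0.987). The narrowest intervals among the members were those of Gnb1, Gng2 and Gng3.

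Gnb2 (chr5:137528127-137533449) stood at 288, 269.8, 235 and 317 CPM in the control libraries and at 192, 256, 269 and 191 CPM in the morphine libraries. Morphine replicates 3 and 8 were below every control library, and the other 2 were within the control range. The log2 fold change of -0.29 ± 0.14 SE had an interval from -0.60 to 0.02 (edgeR, adjusted P = 0.450), and its unadjusted P of 0.0622 was the lowest among the members. With the telencephalic markers as a covariate it was -0.59 ± 0.22 SE (edgeR, adjusted P = 0.802). Without morphine replicates 4 and 7, a setting chosen after seeing the data, the value was -0.56 ± 0.14 SE (edgeR, adjusted P = 0.222, against 0.222 to 1.0 over the 23 fits). The sum of 6 GABAergic neuron markers split the morphine libraries in the same way. It was 918 and 956 CPM in morphine replicates 3 and 8, 1340 and 1391 CPM in 4 and 7, and 1162.5 to 1594 CPM in the control libraries. Its part in the values of Gnb2 was not tested.

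Gnb4 (chr3:32578587-32616673), a less abundant beta subunit, was at 29.2, 22.2, 18.9 and 32.6 CPM in the control and 21.5, 22.1, 24.1 and 13.6 CPM in the morphine libraries. Only morphine replicate 8 fell below the control range. Its log2 fold change was -0.34 ± 0.20 SE, with an interval of -0.79 to 0.10 (edgeR, adjusted P = 0.550). It was -0.19 without morphine replicate 8, -0.61 with the telencephalic markers as a covariate and -0.57 without both morphine replicates 4 and 7. The gene overlaps the coding gene Mfn1, which lay at 40.4 to 59.3 CPM, and strand use in the counting is not stated, so its reads are uncertain to that extent.

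Gnb3 (chr6:124834240-124840275) held 11 to 40 counts per library, or 0.282, 0.338, 0.956 and 0.516 CPM in the control and 0.675, 0.545, 0.844 and 0.576 CPM in the morphine libraries. The groups overlapped, and the interval of the log2 fold change ran from -0.52 to 1.17 (edgeR, adjusted P = 0.757). Its estimate of 0.33 was 0.11 without control replicate 1 and 0.78 without control replicate 5.

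Gng2 (chr14:19872558-19977825) was at 831, 729.7, 764 and 805 CPM in the control and 862, 648, 786 and 744 CPM in the morphine libraries. Gng3 (chr19:8836929-8839246) was at 496, 569.8, 495 and 410.2 CPM in the control and 531, 489.5, 419 and 500.4 CPM in the morphine libraries. For both of these leading gamma genes the groups interleaved. The log2 fold change of Gng2 was -0.04 ± 0.11 SE, with an interval of -0.28 to 0.20 (edgeR, adjusted P = 0.904), and that of Gng3 was -0.02 ± 0.12 SE, with an interval of -0.29 to 0.24 (edgeR, adjusted P = 0.961). Gng3 overlaps the coding gene Bscl2, which lay at 35.4 to 67.6 CPM.

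Gng4 (chr13:13784059-13827895), a gamma subunit known from brain, stood at 135, 173, 124 and 118 CPM in the control libraries and 116, 112, 120.3 and 130.2 CPM in the morphine libraries. Control replicate 2 was the highest of all 8, and the morphine libraries lay close together. Its log2 fold change was -0.20 ± 0.12 SE, with an interval of -0.47 to 0.07 (edgeR, adjusted P = 0.556), and it was -0.07 without control replicate 2 and -0.0028 ± 0.21 SE with the telencephalic markers as a covariate.

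Gng13 (chr17:25717172-25719102) was counted at 16.5, 23.8, 19.6 and 12.7 CPM in the control and 27.7, 24.9, 16.7 and 24.9 CPM in the morphine libraries. Of the morphine libraries, 3 were above every control library, and replicate 7 was among the control values. The log2 fold change was 0.37 ± 0.20 SE, with an interval of -0.06 to 0.81 (edgeR, adjusted P = 0.497), and it was 0.22 without control replicate 6. With the mean level of the telencephalic markers in the model it was 0.93 ± 0.31 SE (edgeR, adjusted P = 0.788, against 0.170 to 1.0 over the 23 fits). Chtf18, the coding gene that it overlaps, lay at 1.54 to 2.38 CPM.

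**Figure D3:**
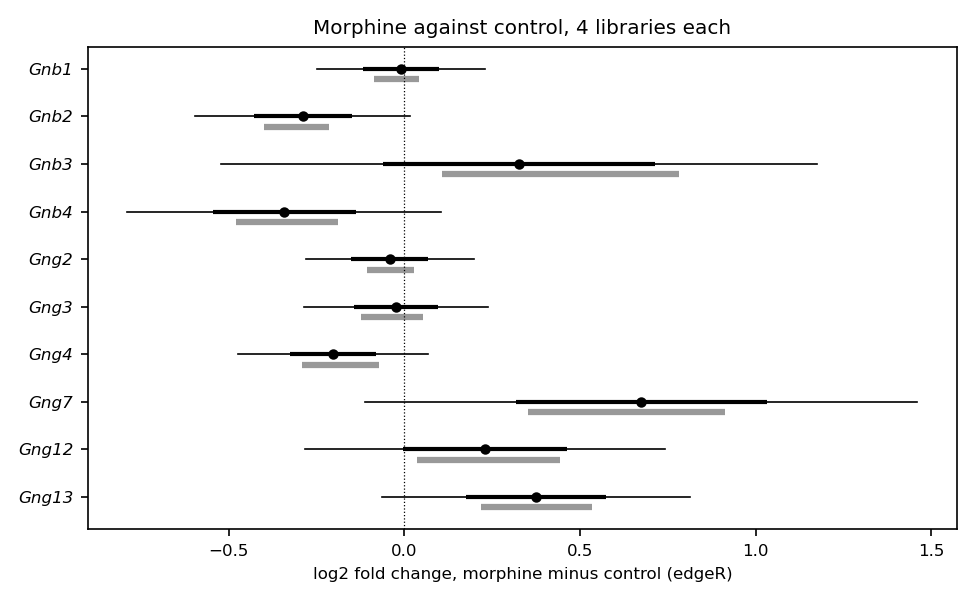
Points give the log2 fold change (morphine minus control, 4 libraries each, edgeR) of the 10 members, with thick bars for 1 SE, thin lines for the 95% interval and grey bars for the range when each library was left out in turn. Every 95% interval includes 0, and the widest are those of Gng7 (-0.11 to 1.46) and Gnb3 (-0.52 to 1.17).

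Gng7 (chr10:80948624-81014925) had the largest log2 fold change of the 10, 0.67 ± 0.36 SE, with an interval of -0.11 to 1.46 (edgeR, adjusted P = 0.495). The libraries behind it were at 174, 211, 147 and 150.2 CPM in the control group and at 139.8, 436, 388 and 125 CPM in the morphine group. Morphine replicates 4 and 7 were thus above the other 6 libraries, by 2.61 times in the mean, and morphine replicates 3 and 8 were the lowest of all. One of these high libraries is labelled male and the other female.

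The libraries high in Gng7 were also those high in striatal markers. The summed CPM of 11 markers of striatal projection neurons was 699, 1152, 898 and 604 in the control libraries and 555, 2323, 1912 and 429 in the morphine libraries. Of these markers 9 of 11 had morphine replicates 4 and 7 above all other libraries, as did 5.69% of all genes and, of the members, 1 of 10, which was Gng7. None of the 11 was at 0 in any library, and 0 were called by edgeR or DESeq2. Adora2a, the adenosine receptor of indirect-pathway striatal neurons, was at 79.4 and 66.0 CPM in replicates 4 and 7 and at 0.288 to 28.9 CPM elsewhere. Gnal, the Golf alpha subunit and a known partner of Gng7, chosen after its values were seen, had a mean of 876 CPM in these libraries and 662 to 840.1 CPM in the other 6.

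When the mean log2 level of the striatal markers was added as a covariate, Gng7 had a log2 fold change of 0.31 ± 0.13 SE (edgeR, adjusted P = 0.409, against 0.297 to 1.0 over the 23 fits). With the telencephalic markers as a covariate it was 0.39 ± 0.76 SE, and with the choroid plexus markers 0.93 ± 0.62 SE. It was 0.35 without morphine replicate 4 and 0.44 without morphine replicate 7. Without both it was -0.39 ± 0.16 SE (edgeR, adjusted P = 0.427), a sign that follows from leaving only the lowest libraries in the morphine group. The covariate and the removal of both libraries were chosen after seeing the data.

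**Figure D4:**
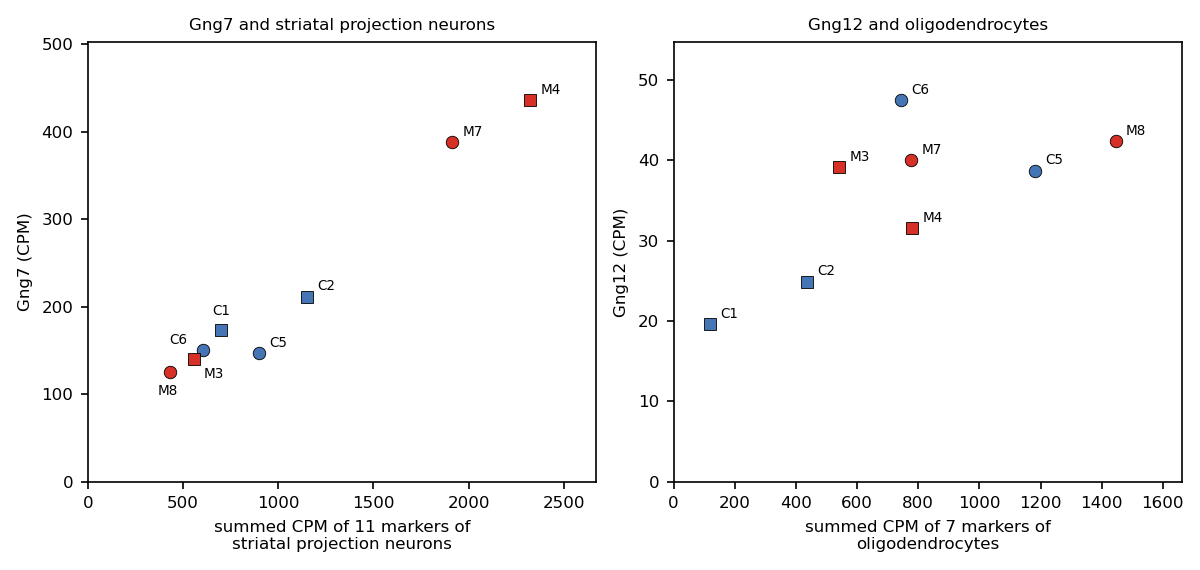
Each point is 1 library (blue control, C; red morphine, M; squares male, circles female; numbers are replicates), with Gng7 CPM against the summed CPM of 11 striatal markers (left) and Gng12 CPM against that of 7 oligodendrocyte markers (right). M4 and M7 stand apart at 436 and 388 CPM of Gng7 with marker sums of 2323 and 1912 CPM, and C1 is lowest on both axes of the right panel.

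Gng12 (chr6:66896397-67021361) was at 19.6, 24.9, 38.7 and 47.5 CPM in the control and 39.2, 31.6, 40.0 and 42.4 CPM in the morphine libraries. The labelled male control libraries were below the other 6. Its log2 fold change was 0.23 ± 0.23 SE, with an interval of -0.28 to 0.74 (edgeR, adjusted P = 0.700), and it was 0.035 without control replicate 1 and 0.44 without control replicate 6. The sum of 7 oligodendrocyte markers was lowest in the same libraries, at 118 and 435 CPM in control replicates 1 and 2, 1183 and 744 CPM in control replicates 5 and 6, and 541 to 1446 CPM in the morphine libraries, and 7 of 7 markers were lowest in control replicate 1. When that list's mean log2 level was added as a covariate, a fit chosen after seeing the data, Gng12 had a log2 fold change of 0.01 ± 0.18 SE (edgeR, adjusted P = 1.0, against 0.498 to 1.0 over the 23 fits). The match is not particular to oligodendrocytes. The sum of 13 choroid plexus markers was also lowest there, at 43.4 and 84.4 CPM in control replicates 1 and 2. It was 89.6 and 162 CPM in control replicates 5 and 6, and 218 to 682 CPM in the morphine libraries. Of these markers, 9 of 13 were lowest in control replicate 1. With the choroid plexus list as a covariate Gng12 had -0.35 ± 0.31 SE, and with the telencephalic list -0.28 ± 0.33 SE.

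To compare the sexes, the model held both sex and condition. None of the 10 members was called, where edgeR called 1 gene of 18939 (0.00528%). DESeq2 called 21 of the 15267 genes it gave an adjusted P (0.138%), also with 0 members. By edgeR, 1 of 10 members had an unadjusted P under 0.05, against 3.1% of all genes. That member was Gng12, at 38.7, 47.5, 40.0 and 42.4 CPM in the female and 19.6, 24.9, 39.2 and 31.6 CPM in the male libraries. Its log2 fold change, female minus male, was 0.59 ± 0.16 SE (edgeR, adjusted P = 0.849) and 0.57 ± 0.18 SE without control replicate 5 (adjusted P = 1.0, against 0.268 to 1.0 over its 13 fits). Without that library 0 members were called, with 0.0265% of 18850 genes called, and 2 of 10 had an unadjusted P under 0.05, with 2.63% of genes there. The added member was Gng13, at -0.47 ± 0.18 SE without control replicate 5 (edgeR, adjusted P = 1.0) and -0.33 ± 0.18 SE with it. The oligodendrocyte marker sum was 744 to 1446 CPM in the female libraries, also without control replicate 5, and 118 to 779 CPM in the male libraries, and its part in the difference was not tested.

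The difference of the morphine effect between the sexes was tested as an interaction, which edgeR called for 0 of 18939 genes (0%), with 1.72% of genes at an unadjusted P under 0.05, and DESeq2 for 4 genes (0.0211%). No member was called by either tool. Gng12 had the lowest unadjusted P among the members, 0.0170, with a log2 fold change for morphine of 0.67 ± 0.19 SE in males and -0.07 ± 0.19 SE in females (edgeR, difference -0.74 ± 0.26 SE, adjusted P = 1.0). Gng4 had -0.44 ± 0.16 SE in males and 0.05 ± 0.16 SE in females, a difference of 0.49 ± 0.23 SE (edgeR, adjusted P = 1.0), which was 0.30 without control replicate 2. Without control replicate 5 these differences were -0.87 ± 0.30 SE and 0.53 ± 0.29 SE, and the values in females were -0.22 ± 0.23 SE and 0.08 ± 0.22 SE, with 1 library left to stand for the female controls and taken to vary like the other groups. In that fit 0 members were called, and 1 of 10 had an unadjusted P under 0.05, against 1.64% of genes.

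**Figure D5:**
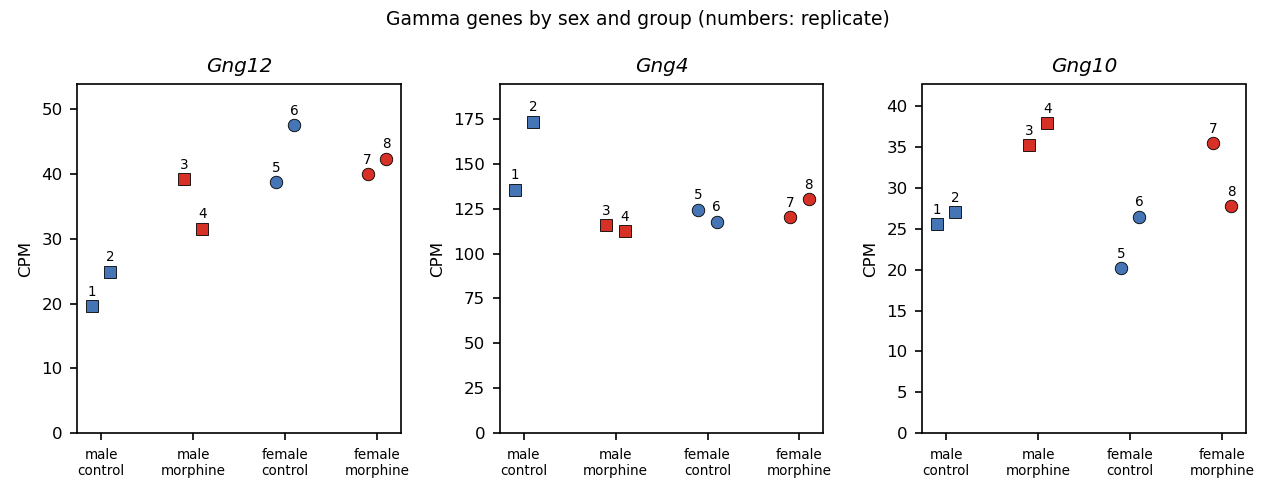
CPM (linear axis from 0) of Gng12, Gng4 and Gng10 in the 2 libraries of each labelled sex and group, with replicate numbers above the points (blue control, red morphine). For Gng12 the male control libraries are lowest (19.6 and 24.9 CPM), for Gng4 they are highest (135 and 173 CPM), and for Gng10 every morphine library is above every control library.

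The rest of the family was Gnb5 and 5 measured gamma genes, and Gngt1 was not analysed here. None of these 6 was called by edgeR, and DESeq2, with 3.29% of all genes called, called 1, Gng10, a gamma subunit found in many tissues. Gng10 (chr4:59035156-59041899) was at 25.6, 27.1, 20.2 and 26.5 CPM in the control and 35.2, 37.9, 35.5 and 27.8 CPM in the morphine libraries, so the groups did not overlap, as for 3.34% of all genes in this direction. Its log2 fold change was 0.46 ± 0.13 SE, with an interval of 0.17 to 0.74 (edgeR, adjusted P = 0.185, and 0.0434 to 1.0 over the 23 fits, the lowest from DESeq2). Gng5 was also separated, at 14 to 48 counts per library and a log2 fold change of 0.78 ± 0.29 SE (edgeR, adjusted P = 0.304), and it was 0.33 ± 0.49 SE with the telencephalic and 0.15 ± 0.46 SE with the choroid plexus markers as a covariate. A pseudogene copy of Gng5 exists in RefSeq, which makes its counts uncertain, and the study lists Gng5 among the genes it picked on these libraries, so its direction is not independent evidence.

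Gnb5 was at 173.7 ± 2.33 CPM in the control and 173.8 ± 19.9 CPM in the morphine libraries (SD, n = 4 each), with an interval of the log2 fold change from -0.21 to 0.22. The log2 fold change of Gng8 was 0.07 ± 0.22 SE and that of Gng11 was 0.45 ± 0.45 SE (edgeR, adjusted P = 0.925 and 0.697). With 1 library left out, Gng8 ran from -0.14 to 0.21 and Gng11 from 0.11 without control replicate 1 to 1.07 without control replicate 5, and with the choroid plexus markers as a covariate they were 0.41 and -0.26. Gngt2, a gamma subunit of cone photoreceptors, held 1 to 6 counts per library, too few for a comparison.

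The other genes of the pathway were grouped by their relation to the dimer. Of 13 alpha subunits, 0 were called, and their median log2 fold change was -0.04. Gnai2, an inhibitory alpha subunit, had the lowest P of those below 0 (-0.24 ± 0.11 SE, edgeR, adjusted P = 0.406), and Gna12 of those above 0 (0.23 ± 0.20 SE, adjusted P = 0.677, and 0.047 without control replicate 1 to 0.43 without control replicate 5). Of 25 effectors bound by beta-gamma, 1 was called by edgeR (0.195% of all genes) and 3 by DESeq2 (3.29% of all genes), all higher. Their median was 0.18 against 0.01 over all genes, and 18 of 25 were above 0 against 51.4% of all genes.

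The called effector was Adcy1, an adenylyl cyclase that calcium and calmodulin stimulate and beta-gamma inhibits. It rose from 314, 334, 368 and 406 CPM in the control to 528, 579, 601 and 572 CPM in the morphine libraries, without overlap (edgeR, log2 fold change 0.68 ± 0.10 SE, adjusted P = 0.0416). The study also picked Adcy1 on these libraries, so its direction is not independent evidence. Adcy1 was called in 10 of 22 other fits, with log2 fold changes of 0.43 to 0.73 in all of them. It was 0.43 (edgeR, adjusted P = 0.802) with the telencephalic markers as a covariate, and the call was lost without control replicate 1, 2 or 5 or morphine replicate 4, 7 or 8 (edgeR, adjusted P = 0.0507 to 0.132). The lowest P below 0 was that of Adcy4 (-1.79 ± 1.04 SE, adjusted P = 0.535), another cyclase, which beta-gamma activates.

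Of 15 genes for assembly and lipid modification of the dimer, 0 were called, with a median of 0.02. Rce1, the protease that trims the lipid-bearing gamma tail, had 0.31 ± 0.16 SE (edgeR, adjusted P = 0.484), and Cct7, a subunit of the chaperonin that folds beta subunits, had -0.08 ± 0.10 SE (adjusted P = 0.768, and -0.16 without control replicate 2). Of 20 binding partners and regulators, 0 were called by edgeR and 2 by DESeq2 (3.29% of all genes), with a median of -0.03. These were Gpsm1 and Gpsm2, which hold inhibitory alpha subunits apart from beta-gamma, and they lay in opposite directions. Gpsm1 stood at 77.4 to 101 CPM in the control and 57.9 to 71.4 CPM in the morphine libraries (edgeR, log2 fold change -0.46 ± 0.10 SE, adjusted P = 0.107, with DESeq2 0.00763). Gpsm2 stood at 5.43 to 7.25 CPM in the control and 7.95 to 10.6 CPM in the morphine libraries (edgeR, 0.58 ± 0.15 SE, adjusted P = 0.159, with DESeq2 0.0188). Gpsm1 and Gpsm2 were each called in 1 of 23 fits, that of DESeq2. Gpsm2 was 0.24 ± 0.24 SE with the telencephalic and 0.25 ± 0.24 SE with the choroid plexus markers as a covariate.

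For the 3 members with the lowest P in the comparison of morphine and control, the genes with the most similar pattern of log2 CPM over the 8 libraries were sought among 9371 others with a mean of at least 10 CPM. These are descriptions over few libraries that share depth and cell makeup. Gng7 was most like Ppp1ca (r = 0.973, and 0.984 after removal of the group means), Tesc (0.969 and 0.988) and Rem2 (0.968 and 0.966). Among the genes most like Gng13 were Mrpl21 (0.967 and 0.965) and 2610019F03Rik (0.964 and 0.982). Gnb2 was most like Cbx6 (0.956 and 0.93), Rab11fip4 (0.956 and 0.935) and Dlx1 (0.955 and 0.932).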

How the data were processed

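The authors deposited 1 table of whole-number counts, not normalized, with a row for each RefSeq transcript and a column for each of 8 libraries, per the labels on mm10. The study's methods describe Salmon followed by tximport to the gene level, which the whole-number values per transcript do not match, and the tool that made this table is not given in the sources used here. Groups, sexes and replicates follow the labels. For a gene with several transcripts, the row with the largest total was taken. In the beta and gamma family such rows had nearly the same total, with the lowest at 99.91% (Gng7) to 100.0% (Gng2) of the highest. The counts thus hardly separate these transcripts, and the length taken with the chosen row is uncertain to that extent. Sums over transcripts add such nearly equal rows together.

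Tests were run in edgeR 4.0.16 (R 4.3.3; TMM factors, glmQLFit and glmQLFTest, default settings) over all 18939 genes. CPM was computed from the deposited counts, and marker levels used as covariates are means of log2 CPM (prior count 2). Lengths came from GENCODE M21 and coordinates from RefSeq on GRCm38.p6. Shares and likeness are descriptions without a test.

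Other settings were DESeq2 1.42.0, 2 other scalings (RLE, upper quartile), 2 filters (filterByExpr, and 10 counts or more in all libraries), sex as a covariate, edgeR's robust option, limma-voom (limma 3.58.1), sums over transcripts, marker covariates and the removal of each library. The striatal and oligodendrocyte covariates, the removal of both morphine replicates 4 and 7 and the interaction with a library removed were added after the counts were seen. In simulated counts for morphine against control (18611 genes, 200 of them changed), edgeR found 90.5% of the changes with 8.6% false calls, DESeq2 94.5% with 20.9% and limma-voom 87.0% with 4.9%. The changed genes were given log2 fold changes of 1.5 up or down and were drawn only from genes above a minimum mean count. Estimates of the members were smaller in size, at most 0.67 (Gng7), so these rates do not give the power to find such changes.

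Members and lists were chosen with earlier results of these data known. Named genes are the members, their family, every called gene of the other lists or else the gene with the lowest P in each direction, and the 3 genes most like each of 3 members, of which 1 is not reported here. No source ties libraries to litters or days, so P values measure the spread between pools of mice. PCR copies are not marked in the counts. The kit marks strand, and its use in counting is not stated. Figures were drawn with matplotlib 3.10.9.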

Additional observations from a re-analysis of the deposited data

Results flagged for a closer look

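In control replicate 1, Gng5 was at 0.359 CPM, far below the 0.574 to 0.608 CPM of the other control libraries, a gap of 0.863 of the group's range. Chance alone gives about 1 such sample in 20 groups of 4, and 32 groups (16 family genes in each condition) were examined. The gene had only 14 to 48 counts per library, and the cause was not tested.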

How the results depend on the processing

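No paired analysis was possible because the control and morphine groups share no replicate number in the labels. No member was called in any fit, and the number of members called was 0 in all fits for condition, sex and interaction. Of the 140 log2 fold changes of members under 14 other settings, 126 kept their sign and 14 turned, and of 80 with 1 library left out 75 kept it. Gnb1 (-0.01 in the main comparison) was 0.026 with the telencephalic markers, 0.065 with the choroid plexus markers, 0.027 with the oligodendrocyte markers, 0.0051 without both morphine replicates 4 and 7, and -0.088 to 0.041 with 1 library left out. Gng2 (-0.04) was 0.036, 0.076 and 0.015 with the telencephalic and choroid plexus markers and without both libraries, and -0.11 to 0.028 with 1 left out. Gng3 (-0.02) was 0.28, 0.077, 0.0060 and 0.043 with the telencephalic, choroid plexus and oligodendrocyte markers and without both libraries, and -0.12 to 0.054 with 1 left out. Gng7 (0.67) was -0.39 without both libraries, and 0.35 to 0.91 with 1 left out. Gng12 (0.23) was -0.28 with the telencephalic and -0.35 with the choroid plexus markers. The cause of these turns was not tested.

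Over all genes, 37 were called by edgeR, 502 by DESeq2, 14 with filterByExpr, 15 with at least 10 counts in every library, 110 with sex in the model, 23 with limma-voom and 22 with sums over transcripts. With marker levels in the model, 1 (telencephalic), 0 (choroid plexus), 15 (striatal) and 1 (oligodendrocyte) were called. Without both morphine replicates 4 and 7, 0 were called, and with 1 library left out 0 to 77, with 0 without morphine replicate 4 or 8 and 1 without control replicate 1. Beside these counts of 0, edgeR had 2292 genes at an unadjusted P under 0.05 with all libraries.

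With the 10 members alone in the total, Gnb1 held 77.0% of the beta total. Without division by length, Gnb1 held 76.5%, Gnb2 13.2% and Gnb4 1.19% of the beta total, and Gng2 45.3%, Gng3 28.7%, Gng4 7.55%, Gng12 2.10% and Gng13 1.22% of the gamma total, so the order of Gng2 and Gng3 turns on length. Counts were fewest for Gnb3, Gng5 and Gngt2 among the family, which limits their precision.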
